A study of Mus musculus with 9 samples.

Results

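The 7 genes described here encode proteins that set whether a lymphocyte leaves a tissue, stays in it or attaches to it: the transcription factors Klf2 and Klf3, the sphingosine-1-phosphate receptors S1pr1, S1pr4 and S1pr5, and the surface proteins Cd69 and Cd44. They were chosen by name, and all 7 were found among the 14004 genes of the table through their Ensembl identifiers. Their transcripts were measured by RNA-seq in 9 libraries of iNKT1 cells, 3 each from thymus, liver and spleen. iNKT1 cells are invariant natural killer T cells of the T-bet-expressing, interferon-gamma-producing type, which recognise lipid antigens on CD1d. All libraries came from C57BL/6 mice of the genotype Tbx21CreTg;Rosa26-LSL-YFP+/+, labelled as untreated, and the ages of the mice were not given in the sources used here. In this genotype a Cre recombinase driven by Tbx21, the gene of T-bet, switches on a yellow fluorescent protein, so the thymus, liver and spleen groups carry the same transgene and reporter and are labelled apart by tissue. The series describes the 3 libraries of a tissue as independent replicates, without saying whether each came from its own mouse. The p-values below weigh a tissue difference against the spread between libraries of a tissue, estimated over all 9 libraries together. That spread may be partly technical.

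Lymphocytes leave the thymus, spleen and lymph nodes by following sphingosine-1-phosphate (S1P), a lipid that is abundant in blood and lymph and scarce inside the tissue. KLF2 is a transcription factor needed for the expression of S1pr1, the main egress receptor of T cells, while CD69 binds the S1PR1 protein and removes it from the cell surface. Resident lymphocytes, iNKT cells among them, are known for low KLF2 and S1PR1 and for CD69 at the surface. KLF3 binds the same CACCC-type DNA motifs as KLF2 and usually represses. S1PR4 and S1PR5 are further S1P receptors of lymphoid cells, S1PR5 being known in natural killer cells, and CD44 is a receptor for hyaluronan that marks antigen-experienced and innate-like T cells.

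Because KLF2 and KLF3 both bind CACCC boxes, the promoters of the 7 genes were searched for CACCC on both strands (its reverse complement is GGGTG), from 250 bases before to 50 bases after the RefSeq start (assembly GRCm38.p6). The table of promoters held 5 of the 7 genes; S1pr1 and Cd69 were not among them. The Klf3 promoter held 5 such boxes, a number reached or passed by 1.02% of the 32851 promoters of this length. The S1pr5 promoter held 2 and the Klf2 and S1pr4 promoters 1 each, whereas Cd44 held 0; in all promoters the mean was 0.973, and 57.5% held at least 1. The stretch upstream of the earliest annotated start is shown for Klf3 and for both receptor genes that had an entry, written 5′ to 3′ on the gene's strand, with the boxes in capitals. The Klf3 stretch lies at chr5:64803271-64803387 on the plus strand, that of S1pr4 at chr10:81500138-81500387 on the minus strand and that of S1pr5 at chr9:21248444-21248693 on the minus strand.
Klf3: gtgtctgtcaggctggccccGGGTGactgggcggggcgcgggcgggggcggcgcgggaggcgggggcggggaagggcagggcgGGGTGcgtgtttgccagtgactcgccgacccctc
S1pr4: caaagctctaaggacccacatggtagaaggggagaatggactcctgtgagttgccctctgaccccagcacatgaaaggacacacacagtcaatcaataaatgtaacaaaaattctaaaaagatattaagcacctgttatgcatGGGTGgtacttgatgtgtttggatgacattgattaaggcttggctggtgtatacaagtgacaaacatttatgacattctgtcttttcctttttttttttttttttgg
S1pr5: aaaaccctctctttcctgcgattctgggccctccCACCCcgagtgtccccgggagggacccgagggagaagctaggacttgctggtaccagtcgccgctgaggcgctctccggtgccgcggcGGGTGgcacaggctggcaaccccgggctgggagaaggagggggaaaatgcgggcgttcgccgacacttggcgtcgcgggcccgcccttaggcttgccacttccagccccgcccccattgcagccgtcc
The Klf3 and S1pr5 promoters are rich in G and C, at 76.7% and 69.3% of bases, and the S1pr4 promoter is not, at 41.0%, against a median of 52.7% over all promoters. The other 3 boxes of Klf3 lie after the shown stretch. A T-box word (TCACACC or GGTGTGA, in 3.98% of promoters) and a FOXO word (TGTTTAC or GTAAACA, in 3.65%) had no match in any of the 5 promoters. These matches describe letters only, and binding was not measured.

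The values are normalised read counts as the authors deposited them. The 9 libraries held 3868765 to 39604052 reads as recovered from the steps between low values, with a median of 27710054, and 10476 to 13038 genes with a read. Liver replicate 3 was the shallowest library, so 1 read there is worth 6.05 units against 0.60 to 1.25 units in the other 8. Mitochondrial genes took 26.1% to 37.4% of the values. On the log2 scale the thymus libraries correlated with each other at 0.727 to 0.767, the liver libraries at 0.810 to 0.873 and the spleen libraries at 0.808 to 0.857, so that thymus replicates were the least alike. The median gene's SD on the log2 scale was 1.34 in thymus, 0.76 in liver and 0.77 in spleen. Replicate 2 of each tissue had Xist values of 84543 to 107736 with at most 21 reads from Y-linked genes, thymus replicate 3 had both an Xist value of 16531 and 7012 Y-linked reads, and the other 5 libraries had Xist values of at most 125.2. The labels give no sex. All 8 iNKT1 markers, among them Zbtb16 (PLZF) and Tbx21, were read in every tissue. Their summed level was 84477 to 114923 in thymus, 125346 to 142664 in liver and 83299 to 101467 in spleen. Cd3e and Il2rb made up most of the sum, with means of 35913 and 38614 in thymus and 42716 and 66906 in liver. The log2 difference of liver from thymus was above 0 for 6 markers and below 0 for 2. Those below 0 were Zbtb16, with means of 2624 in thymus and 1578 in liver, and Klrb1c, with 9483 and 5095. For spleen from thymus it was above 0 for 4 and below 0 for 4.

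All 7 genes passed the filter on low values, which asked for 3 or more libraries at a value of 1 or above, as did 13309 genes in all. Each gene was compared between tissues on log2(value + 1) with limma-trend over the 9 libraries, two-sided, with Benjamini-Hochberg adjustment over all genes tested and a threshold of 0.05. None of the 7 passed in any comparison with limma-trend, nor with edgeR's quasi-likelihood test on the recovered reads. The background is low: 0.323% of all genes passed for liver against thymus (43 genes), 0.398% for spleen against thymus (53 genes), 0.015% for liver against spleen (2 genes) and 0.346% in the F-test for any tissue difference (46 genes). At an unadjusted p under 0.05, Klf2 and Klf3 were counted for liver against thymus among 1550 genes (11.6% of all), Klf3 for spleen against thymus among 1555 (11.7%), none of the 7 for liver against spleen among 403 (3.03%), and Klf3 in the F-test among 1324 (9.95%). edgeR called 0.165%, 0.278%, 0.015% and 0.225% of all genes in these 4 tests. DESeq2 on the recovered reads called Klf2 and Klf3 in both comparisons with thymus and Klf2 in its test for any difference. Of the genes to which it gave an adjusted p, DESeq2 called 3.94% for liver against thymus, 4.51% for spleen against thymus, 0.176% for liver against spleen and 3.39% for any difference, more than limma-trend or edgeR in each. Liver and spleen were set against the same 3 thymus libraries, so the 2 comparisons with thymus are not independent of each other.

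**Figure D1:**
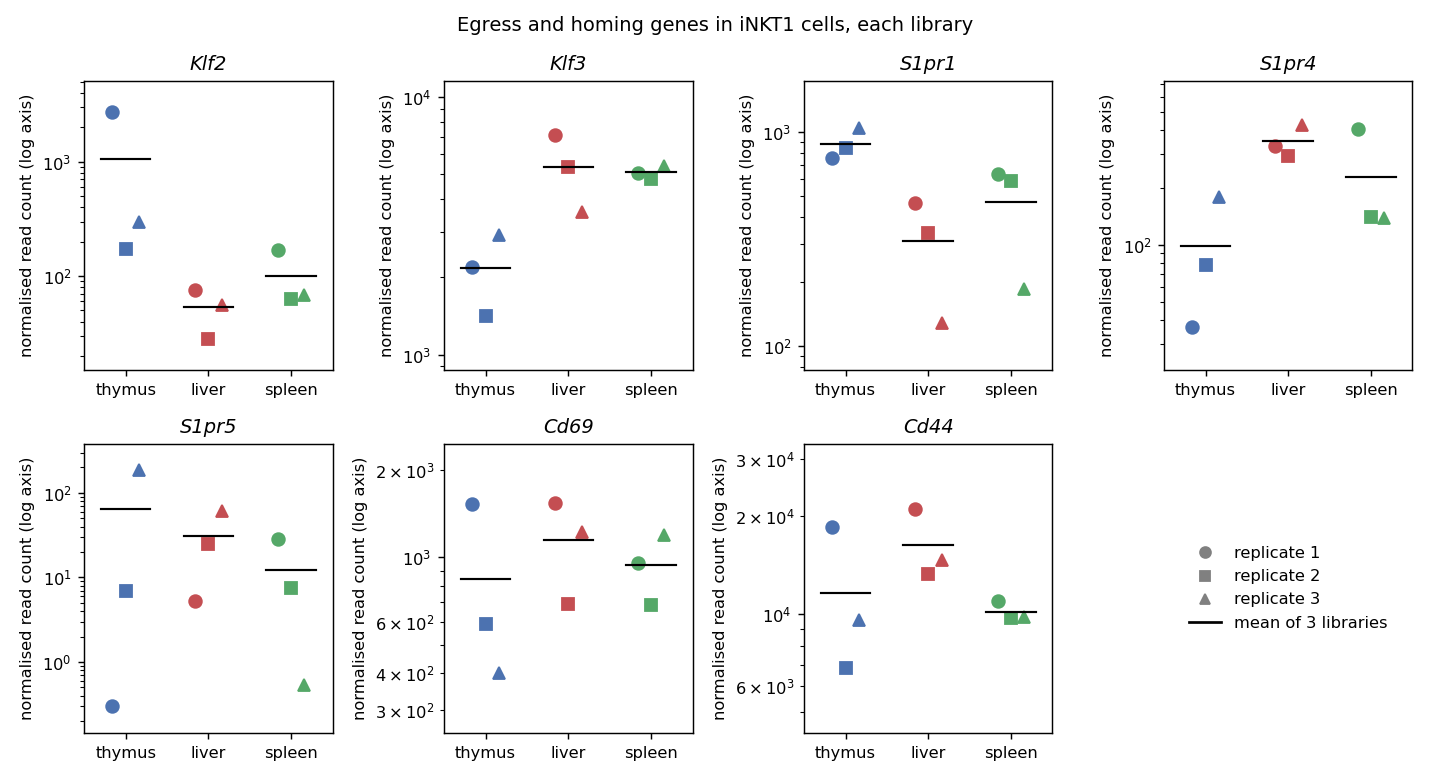
Normalised read count (log axis) of the 7 genes in each library of thymus, liver and spleen iNKT1 cells; marker shapes give the replicate, lines the mean of 3 libraries, and S1pr5 in thymus replicate 1, which has no read, is drawn at 0.3. Klf2 and S1pr1 are higher and Klf3 lower in all 3 thymus libraries than in all 6 liver and spleen libraries.

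Klf2, the factor needed for S1pr1 expression, was the gene with the widest tissue gap, and its highest value stood in the thymus. The gene (ENSMUSG00000055148) lies on chr8:72319033-72321656 of GRCm38, plus strand. Its normalised read count was 2697, 171.2 and 299.6 in thymus replicates 1, 2 and 3, 75.7, 28.3 and 55.7 in liver, and 168.4, 63.2 and 68.3 in spleen. The liver values rest on 87, 33 and 9 reads. Every thymus library was above every liver and spleen library, but thymus replicate 2 and spleen replicate 1 were close, at 171.2 and 168.4, and thymus replicate 1 was far above the other 8. The means were 1056 ± 1423 (SD, n = 3) in thymus, 53.2 ± 23.8 in liver and 99.97 ± 59.3 in spleen, so the thymus mean was 19.9 times the liver mean and 10.6 times the spleen mean. On log2(value + 1) the difference was -3.37 for liver against thymus (SE 1.32, 95% interval -6.19 to -0.55, limma-trend adjusted p = 0.341). For spleen against thymus it was -2.51 (SE 1.32, 95% interval -5.33 to 0.31, limma-trend adjusted p = 0.476). Without thymus replicate 1 these 2 differences were -2.18 and -1.32. DESeq2 gave -4.36 (adjusted p = 0.00175) and -3.46 (adjusted p = 0.0194), and edgeR gave -4.34 (adjusted p = 0.287) and -3.41 (adjusted p = 0.355). Liver and spleen overlapped, with a difference of -0.86 (limma-trend adjusted p = 1). In bulk libraries such as these, fewer cells that express a gene and less RNA per cell cannot be told apart.

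Klf3, the CACCC-binding repressor, had the opposite order, with its lowest mean in thymus. The gene (ENSMUSG00000029178) lies on chr5:64803388-64832901, plus strand, and overlaps Gm20033 on the other strand and C230096K16Rik on the same strand; whether the counting used strand is not given in the sources used here. Its normalised read count was 2184, 1414 and 2922 in thymus, 7076, 5350 and 3562 in liver, and 5075, 4788 and 5387 in spleen. The 3 thymus libraries were the 3 lowest, and the spleen libraries lay within the range of the liver libraries. The means were 2173 ± 754 (SD, n = 3), 5329 ± 1757 and 5083 ± 300, that is 2.45 times as high in liver and 2.34 times as high in spleen as in thymus. The log2 difference was 1.30 for liver against thymus (SE 0.36, 95% interval 0.53 to 2.07, unadjusted p = 0.00255, limma-trend adjusted p = 0.189) and 1.29 for spleen against thymus (SE 0.36, 95% interval 0.52 to 2.05, unadjusted p = 0.00277, limma-trend adjusted p = 0.181). The DESeq2 adjusted p-values were 0.0291 and 0.0424, and those of edgeR 0.27 and 0.264. Of the 7 genes, Klf3 had the largest share of its log2 variance between tissues, 75.8%, against 62.5% for Klf2 and a median of 25.4% over all genes tested. Liver and spleen differed by 0.01 on the log2 scale (95% interval -0.75 to 0.78, limma-trend adjusted p = 1).

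Per kilobase of exon, Klf3 was the higher of the pair in 8 of 9 libraries. The length used was all annotated exons of a gene merged, 11243 bases for Klf3 and 1847 for Klf2. It can exceed the length of the transcripts present, so comparisons of different genes per kb are approximate here and below. Its level was 126 and 260 units per kb in thymus replicates 2 and 3, where Klf2 stood at 92.7 and 162, and its means of 474 in liver and 452 in spleen were set against 28.8 and 54.1 for Klf2. The exception was thymus replicate 1, with 1460 units per kb of Klf2 and 194 of Klf3.

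Among the receptors, S1pr1, the receptor that leads T cells out of thymus and lymphoid tissue, had a higher mean in thymus than in liver and spleen, the same direction as Klf2, without passing the test. The gene (ENSMUSG00000045092) lies on chr3:115710433-115715072, minus strand. The thymus libraries had normalised read counts of 752.2, 840.7 and 1039, against 463.7, 339.0 and 128.3 in liver and 639.6, 593.0 and 184.0 in spleen. All 3 thymus libraries were above the other 6, closely grouped, while replicate 3 was the lowest in both liver and spleen. The liver replicate 3 value rests on 21 reads, and that of spleen replicate 3 on 307. The means were 877 ± 147 (SD, n = 3), 310 ± 169 and 472 ± 251, so the thymus mean was 2.83 times the liver mean and 1.86 times the spleen mean. The log2 difference was -1.67 for liver against thymus (SE 0.79, 95% interval -3.35 to 0.01, unadjusted p = 0.0511, limma-trend adjusted p = 0.429). For spleen against thymus it was -1.08 (SE 0.79, 95% interval -2.76 to 0.60, limma-trend adjusted p = 0.619). Without liver replicate 3 the first was -1.13, and without spleen replicate 3 the second was -0.50. Liver and spleen overlapped, with a difference of -0.60 (95% interval -2.28 to 1.08, limma-trend adjusted p = 1).

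S1pr4, a receptor confined largely to blood-forming and lymphoid cells, had its lowest mean in thymus. The gene (ENSMUSG00000044199) lies on chr10:81497747-81500132, minus strand. Replicates 1, 2 and 3 had normalised read counts of 37.0, 78.7 and 179.3 in thymus, 331.4, 291.8 and 429.7 in liver, and 407.1, 139.6 and 138.4 in spleen. Liver and thymus did not overlap, whereas the lower spleen libraries lay within the thymus range. The means were 98.3 ± 73.1 (SD, n = 3), 351 ± 71.0 and 228 ± 155, with liver 3.57 times and spleen 2.32 times the thymus mean. The log2 differences from thymus were 2.09 in liver (SE 1.10, 95% interval -0.25 to 4.42, limma-trend adjusted p = 0.473) and 1.29 in spleen (SE 1.10, 95% interval -1.04 to 3.63, limma-trend adjusted p = 0.671). Liver against spleen gave 0.80 (95% interval -1.54 to 3.13, limma-trend adjusted p = 1).

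S1pr5, the receptor best known from natural killer cells, was scarce and varied most among the 7 genes. The gene (ENSMUSG00000045087) lies on chr9:21242912-21248443, minus strand, and overlaps Gm48303 on the other strand. Thymus replicate 1 had no read, thymus replicate 2 a normalised read count of 7.0 and thymus replicate 3 one of 184.3. Liver stood at 5.2, 24.9 and 61.7 and spleen at 28.3, 7.5 and 0.53. The liver values rest on 6, 29 and 10 reads. The tissues overlapped, and the highest and one of the lowest values both belonged to thymus. Only 7.9% of its log2 variance lay between tissues. Its thymus mean of 63.8 ± 104.5 (SD, n = 3) was above the liver mean of 30.6 ± 28.7, while the log2 difference of liver from thymus was 0.91 (95% interval -3.57 to 5.40, limma-trend adjusted p = 0.903), so its direction depends on the scale. Spleen had a mean of 12.1 ± 14.4 and a log2 difference from thymus of -0.66 (95% interval -5.15 to 3.82, limma-trend adjusted p = 0.935). Differences of up to several log2 units either way were not detectable at this depth and spread.

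**Figure D2:**
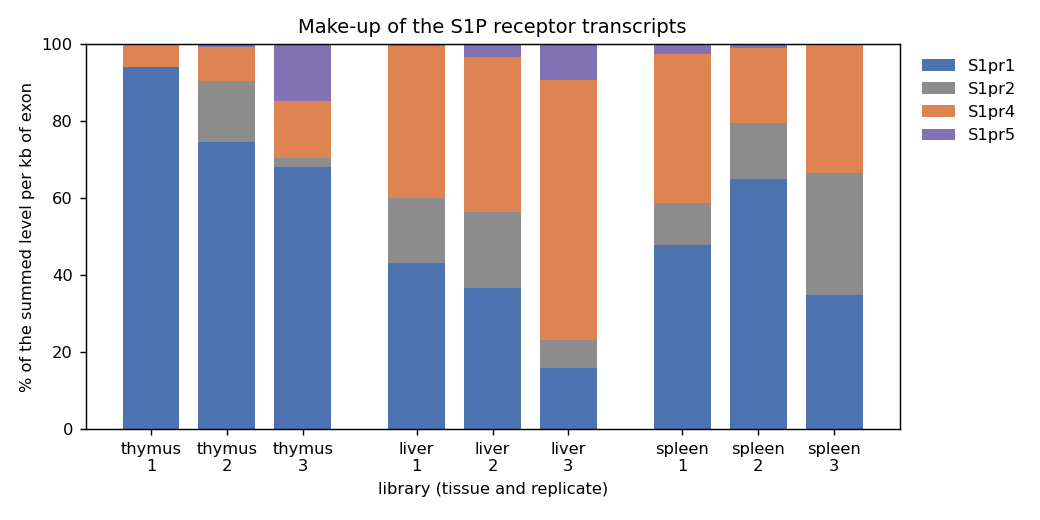
Share of each S1P receptor in the summed level per kb of exon of S1pr1, S1pr2, S1pr4 and S1pr5, 1 bar per library. S1pr1 holds 68.1% or more of the sum in the 3 thymus libraries and 65.1% or less in the other 6.

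The make-up of the receptor transcripts within a library does not depend on how libraries were scaled against each other. Summed per kb of exon over the 4 S1P receptor genes of the table, S1pr1 made up 94.1%, 74.6% and 68.1% in thymus, 43.2%, 36.6% and 15.8% in liver, and 47.8%, 65.1% and 34.9% in spleen. The 3 thymus libraries had the 3 highest shares, with spleen replicate 2 just below them. S1pr4 made up 5.9%, 8.9% and 15.0% in thymus, 39.4%, 40.2% and 67.5% in liver, and 38.8%, 19.6% and 33.5% in spleen. Here the 3 thymus libraries had the 3 lowest shares, with thymus replicate 3 and spleen replicate 2 close at 15.0% and 19.6%. Shares of 1 sum are not independent, so a high S1pr1 share lowers the others. The liver replicate 3 shares rest on 21 reads of S1pr1 and 71 of S1pr4. S1pr2, which signals through other G proteins and is known to hold cells back from S1P, made up 0.001%, 15.7% and 2.2% in thymus, 16.8%, 19.9% and 7.5% in liver, and 10.9%, 14.4% and 31.5% in spleen. S1pr5 reached at most 14.7%, in thymus replicate 3. The summed level itself overlapped between tissues, at 262.5 to 501 units per kb in thymus, 266.8 to 352.5 in liver and 173.3 to 439.8 in spleen. The size of each share depends on the annotated exon lengths used. These shares are a description of the libraries and were not tested.

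Cd69, whose product removes S1PR1 from the surface, had overlapping transcript levels in the 3 tissues. The gene (ENSMUSG00000030156) lies on chr6:129267325-129275436, minus strand. Thymus, liver and spleen had normalised read counts of 1531, 590.9 and 399.9, of 1532, 691.7 and 1224, and of 954.2, 683.8 and 1192, in that order. The tissues overlapped, and thymus held both one of the highest values and the lowest. The means were 841 ± 606 (SD, n = 3), 1149 ± 425 and 943 ± 254. The log2 difference was 0.61 for liver against thymus (SE 0.62, 95% interval -0.71 to 1.93, limma-trend adjusted p = 0.731), 0.37 for spleen against thymus (95% interval -0.95 to 1.69, limma-trend adjusted p = 0.853) and 0.25 for liver against spleen (95% interval -1.07 to 1.56, limma-trend adjusted p = 1). These intervals leave room for a difference of more than 1 log2 unit in liver or spleen over thymus. The ratio of Cd69 to S1pr1 per kb, whose size depends on the annotated exon lengths, was 0.953, 0.329 and 0.180 in thymus. It was 1.55, 0.955 and 4.46 in liver, and 0.698, 0.540 and 3.03 in spleen. This ratio was lowest in thymus replicates 3 and 2 and highest in replicate 3 of liver and of spleen. Cd69 is induced within hours of cell activation, and the summed immediate early and stress genes (10 of 12 listed in the table, Hspa1a without a read in thymus and Fosb without one in spleen) ranged from 1859 to 6253 in thymus, 3514 to 3926 in liver and 3464 to 6450 in spleen. The sum hides genes that went both ways. Of the 9 tested, the log2 difference from thymus was above 0 for 7 in liver and 8 in spleen, and below 0 for 2 and 1. None passed with limma-trend. Jun and Dusp1 were picked out after their values were seen. Jun had means of 2.5, 183.3 and 327.3 in thymus, liver and spleen, and Dusp1 of 1515, 422.3 and 605.4. The part of these genes in the Cd69 level was not tested.

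Cd44, the hyaluronan receptor, was the most abundant of the 7 per kb in every tissue. The gene (ENSMUSG00000005087) lies on chr2:102811141-102901665, minus strand, and holds Gm23731 on the other strand. Its normalised read count was 18486, 6850 and 9589 in thymus, 21026, 13276 and 14662 in liver, and 10941, 9749 and 9782 in spleen. All 3 liver libraries were above all 3 spleen libraries, while thymus spanned both. The means were 11642 ± 6083 (SD, n = 3), 16321 ± 4133 and 10157 ± 679. The log2 difference was 0.66 for liver against spleen (SE 0.31, 95% interval -0.01 to 1.32, unadjusted p = 0.0516, limma-trend adjusted p = 1), 0.58 for liver against thymus (95% interval -0.08 to 1.25, limma-trend adjusted p = 0.477) and -0.07 for spleen against thymus (95% interval -0.73 to 0.59, limma-trend adjusted p = 0.955).

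**Figure D3:**
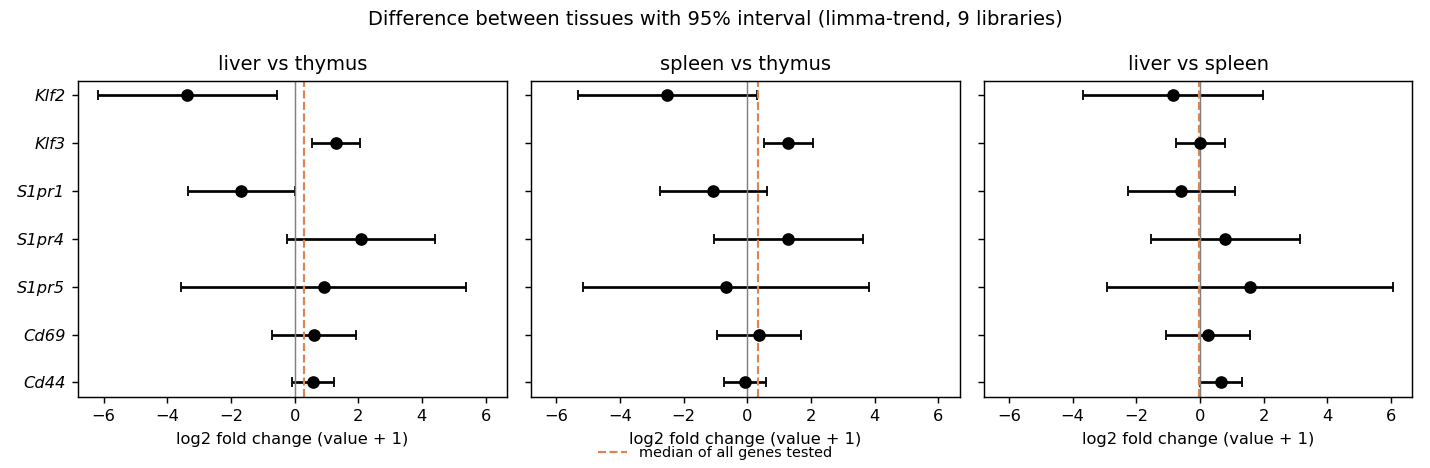
Log2 fold change of each gene with its 95% interval for liver against thymus, spleen against thymus and liver against spleen (limma-trend on value + 1, 9 libraries); the dashed line is the median of all genes tested. Klf2 lies at -3.37 and Klf3 at 1.30 for liver against thymus, and S1pr5 has the widest interval.

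By counts over the 7 genes, liver and thymus did not overlap for 4: Klf3 and S1pr4 were higher in liver, Klf2 and S1pr1 lower. Of all genes tested, 15.3% did not overlap between liver and thymus (9.61% higher and 5.73% lower in liver). Spleen and thymus did not overlap for Klf3 (higher in spleen), Klf2 and S1pr1 (both lower), against 15.3% of all genes (9.29% higher and 6.03% lower). Liver and spleen did not overlap for Cd44 alone, against 12.7% of all genes (5.97% higher and 6.77% lower in liver). The 3 thymus libraries stood apart from all 6 of liver and spleen for Klf2, Klf3 and S1pr1, against 7.01% of all genes. The median log2 difference of the 7 was 0.61 for liver against thymus, -0.07 for spleen against thymus and 0.25 for liver against spleen, where the medians of all genes were 0.29, 0.33 and -0.02. Relative to the median of all genes, Klf2 and S1pr1 thus lay further below in liver and spleen, and Klf3 nearer, than their log2 differences alone show.

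Cd44 had the highest and S1pr5 the lowest mean level of the 7 genes in each tissue. Per kb of exon the means in thymus ran from Cd44 (1718 units per kb) through Klf2 (572, a mean carried by replicate 1, since Klf2 lay below S1pr1 and Klf3 in replicates 2 and 3), S1pr1 (288), Klf3 (193), Cd69 (129) and S1pr4 (41.2) to S1pr5 (25.5). In liver the order was Cd44 (2409), Klf3 (474), Cd69 (176), S1pr4 (147), S1pr1 (102), Klf2 (28.8) and S1pr5 (12.2). In spleen it was Cd44 (1499), Klf3 (452), S1pr1 (155), Cd69 (145), S1pr4 (95.7), Klf2 (54.1) and S1pr5 (4.84). The spread over libraries keeps neighbours from being told apart in several places. Examples are Klf2 and S1pr1 in thymus, S1pr4 and S1pr1 in liver, and S1pr1 and Cd69 in spleen. These orders also depend on the annotated exon lengths, such as 6509 bases for Cd69 against 3046 for S1pr1. Over the 9 libraries, which share tissue and depth, Klf2 correlated on the log2 scale with S1pr1 at 0.58, with Klf3 at -0.60 and with S1pr4 at -0.72, and Cd69 correlated with Cd44 at 0.74 and with S1pr1 at -0.48.

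The rest of the pathway was read from 7 lists of related genes. With limma-trend and with edgeR, 6 of these lists had no gene past the threshold in any comparison; DESeq2's calls are given with each list. The share of all genes at an unadjusted p under 0.05 was 11.6% for liver against thymus, 11.7% for spleen against thymus and 3.03% for liver against spleen, and DESeq2 called 3.94%, 4.51% and 0.176%, against which the counts below are to be read. Of the other S1P receptors, S1pr2 was in the table and S1pr3 was not found in it by its symbol. S1pr2 had no read in thymus replicate 1, normalised read counts of 463.7 and 87.8 in thymus replicates 2 and 3, 472.4, 482.3 and 158.6 in liver, and 381.7, 342.6 and 435.3 in spleen. Its log2 difference was 3.25 for liver against thymus (SE 1.73, limma-trend adjusted p = 0.477) and 3.47 for spleen against thymus (SE 1.73, limma-trend adjusted p = 0.45). Of the 10 genes for S1P synthesis, export and breakdown, 7 were in the table, 6 were tested; none passed in any comparison with limma-trend, edgeR or DESeq2, and 1 had an unadjusted limma-trend p under 0.05 in each. Sgpl1, the lyase that breaks S1P down, had means of 1375 ± 1267 (SD, n = 3) in thymus, 769 ± 164 in liver and 1089 ± 398 in spleen, with overlapping libraries. Sphk1 and Spns2, the kinase and the exporter, were not found in the table by their symbols. Of the 17 genes for signalling below the receptors, G proteins, arrestins and small GTPases, 16 were tested and none passed. The unadjusted p was below 0.05 for 3, 2 and 2 of them in liver against thymus, spleen against thymus and liver against spleen, and DESeq2 called 1, Rac2, as higher in liver than in thymus. The medians of that list were 0.10, -0.17 and 0.15 on the log2 scale for liver against thymus, spleen against thymus and liver against spleen.

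The 8 homing genes regulated by KLF2 or acting with it included genes with both directions. Of 7 tested none passed, while 4 for liver against thymus, 4 for spleen against thymus and 0 for liver against spleen had an unadjusted p under 0.05, and the list medians were 0.38, 0.41 and 0.30. DESeq2 called 1 of them, Itga4, as lower in thymus than in either other tissue. Itgb7, the integrin beta chain for gut homing that KLF2 is known to regulate, had overlapping libraries with means of 3948 ± 1185 (SD, n = 3), 3210 ± 538 and 3162 ± 917. Itga4 and Cxcr4 were picked out after their values were seen. Itga4, the alpha-4 integrin chain, had means of 884 ± 282 in thymus, 6096 ± 5146 in liver and 4216 ± 2183 in spleen, without overlap of thymus with either (limma-trend adjusted p = 0.111 and 0.173). Cxcr4, the receptor for CXCL12, had means of 422 ± 153, 70.9 ± 78.2 and 303 ± 260, with liver below thymus in all libraries (limma-trend adjusted p = 0.349).

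**Figure D4:**
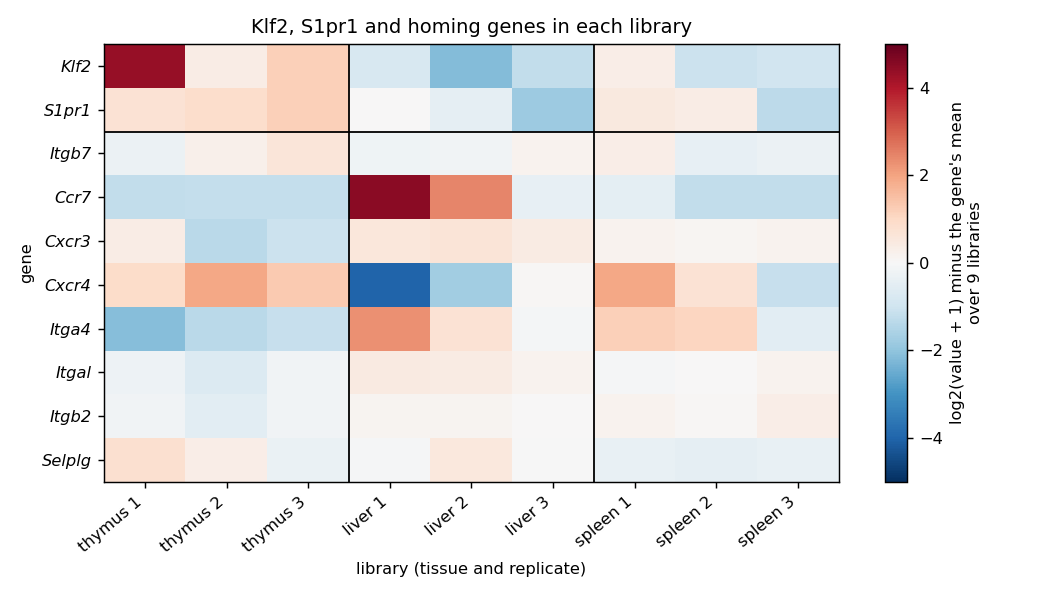
Klf2, S1pr1 and the 8 listed homing genes in each library, as log2(value + 1) minus the gene's mean over the 9 libraries. In the 3 thymus columns Klf2 and S1pr1 are above their means and Itga4 is below its mean.

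Of the 15 other KLF factors, 10 were tested and none passed, with unadjusted p-values under 0.05 for 2, 1 and 1 and list medians of -0.02, 0.24 and 0.48. DESeq2 called Klf7 as higher and Klf8 as lower in liver than in thymus. Klf8 stood at 579.3 and 60.2 in thymus replicates 1 and 3, with no read in replicate 2. In liver it had at most 1 read per library, and the 2 tissues overlapped (limma-trend adjusted p = 0.53). Klf7, chosen after its values were seen, had normalised read counts of 24.7, 159.6 and 15.1 in thymus, 1117, 711.5 and 818.2 in liver, and 346.6, 271.0 and 522.8 in spleen. The 3 tissues did not overlap, and the log2 difference was 4.42 for liver against thymus (SE 1.05, limma-trend adjusted p = 0.113) and 3.18 for spleen against thymus (SE 1.05, limma-trend adjusted p = 0.254). All 12 upstream regulators were tested and none passed. The unadjusted p was under 0.05 for 2, 1 and 1 of them, and DESeq2 called 1, Mapk7, as higher in liver than in thymus. Foxo1, which activates Klf2, had means of 2269 ± 494 (SD, n = 3), 3629 ± 1260 and 3713 ± 1209 in thymus, liver and spleen (limma-trend adjusted p = 0.528 and 0.501 against thymus). Its liver and thymus libraries overlapped, while its spleen libraries were all above those of thymus. The part of Foxo1 in the Klf2 level was not tested. Tbx21, the gene of T-bet and a known activator of S1pr5, had means of 3005 ± 2400, 2729 ± 679 and 3298 ± 490, with overlapping libraries (limma-trend adjusted p = 0.946 and 0.768).

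Of the 8 CD44 partners at the membrane, 7 were tested and 1 passed with limma-trend and with edgeR, Mmp9, in both comparisons with thymus; DESeq2 called it too, with Cd74 in both comparisons and Hmmr in liver; this list was drawn up with earlier results of these data known. Mmp9 encodes the secreted protease MMP-9, which can dock on CD44. Its normalised read count was 2.6 in thymus replicate 3, from 2 reads, with no read in thymus replicates 1 and 2. It was 3430, 3033 and 3585 in liver, and 591.9, 1633 and 2051 in spleen. The log2 difference was 11.07 for liver against thymus (SE 1.07, limma-trend adjusted p = 0.0002) and 9.66 for spleen against thymus (SE 1.07, limma-trend adjusted p = 0.000468), values that depend on the pseudocount of 1 since thymus was at or near 0. The difference between liver and spleen, 1.41, did not pass (limma-trend adjusted p = 1). Cd74 was at most 8.8 in thymus, 602, 145.9 and 310 in liver, and 3593, 4.8 and 644 in spleen replicates 1, 2 and 3. Spleen replicate 2 thus lay within the thymus range (limma-trend adjusted p = 0.253 for liver and 0.257 for spleen against thymus). Within liver and within spleen, Cd74 had the same replicate order as the B cell marker sums given below. The part of B cells in it was not tested.

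Genes with the most similar pattern were sought by Pearson correlation of log2(value + 1) over the 9 libraries, among the 8876 other named genes (8877 for S1pr5) that passed the filter with a mean of at least 100. For Klf2 these were Zscan26 (r = 0.963) and Mlxip (0.953), and for Klf3 they were Znfx1 (0.960) and Irgm1 (0.957). The closest to S1pr1 were Arhgef7 (0.917) and Klhl6 (0.913), to S1pr4 Ipo13 (0.974) and Sem1 (0.952), and to S1pr5 Vcpkmt (0.914) and Ptpra (0.883). Cd69 was nearest to Entr1 (0.921) and Mpp6 (0.912), and Cd44 to Mrtfb (0.937) and Hip1r (0.935). None of the 7 genes was among the 2 closest of another, and with 9 libraries that share tissue and depth such values describe these libraries only.

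Markers of other cells were read beside these genes. The immature thymocyte markers (4 of 6 listed in the table) summed to 394.5, 4.7 and 731.7 in thymus replicates 1, 2 and 3. They summed to 81.8 to 158.1 in liver and 3.6 to 34.0 in spleen. Rag1 and Dntt were without a read in liver, and Dntt without one in spleen. The sum hides differences among the markers. In thymus replicate 1 it was mostly Cd24a, at 377.6, and Rag1 had no read. Rag1 stood at 486.2 in thymus replicate 3 and had no read in thymus replicate 2. In the same 3 thymus libraries Klf2 was at 2697, 171.2 and 299.6 and S1pr1 at 752.2, 840.7 and 1039. The naive T cell markers (2 of 4 in the table, Lef1 and Ccr7) summed to 975.4 to 2930 in thymus, 2164 to 4055 in liver and 3110 to 5464 in spleen. Nearly all of this was Lef1. Ccr7 had no read in thymus and reached at most 52.2 in liver and 0.70 in spleen. The B cell markers (4 of 5) had no read in thymus, and summed to 746.6, 1.7 and 213.2 in liver and 2122, 0.63 and 83.1 in spleen replicates 1, 2 and 3. The natural killer markers (4 of 4) summed to 52.8 to 377.3 in thymus, where Ncr1 had no read, 96.9 to 1255 in liver and 45.2 to 186.3 in spleen. The hepatocyte markers (4 of 5) summed to 0.08 to 269.5 in thymus, 1269 to 1706 in liver and 0 to 14.1 in spleen. Of 6 endothelial markers only Pecam1, which T cells also express, was in the table, at 71.7 to 301.6 in thymus, 458.3 to 670.8 in liver and 393.6 to 1335 in spleen. The myeloid markers (4 of 5) summed to 10.5 to 36.0 in thymus, 12.8 to 455.5 in liver and 24.0 to 1852 in spleen. The iNKT17 markers (3 of 6, Ccr6 without a read in thymus and liver) summed to 0.06 to 8.9 in thymus, 2.3 to 318.5 in liver and 93.8 to 108.6 in spleen, so that spleen stood above thymus in all libraries. The iNKT2 markers (5 of 5) summed to 4072 to 7612 in thymus, 4603 to 5777 in liver and 6073 to 7940 in spleen, and the erythroid markers (3 of 4) to 2.4 to 248.9, 10.2 to 170.6 and 55.6 to 480.1. The part of these cells in the values of Klf2, the S1P receptors, Cd69 and Cd44 was not tested.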

How the data were processed

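RNA of iNKT1 cells was measured in 9 libraries, 3 per tissue. RNA was extracted with a Qiagen micro kit and made into Nugen Ovation Ultralow libraries, which a NextSeq500 read for 76 cycles, per the labels' protocols. The submitters' processing notes name Trimmomatic 0.33, TopHat2 2.1.0, HTSeq 0.6.1, edgeR and the build mm10; the step each did is not given in the sources used here. The authors deposited 1 table of normalised read counts, a scaled signal per gene and library that is not whole. How libraries were scaled is not given in the sources used here.

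The steps between low values in a library were used to recover its reads; among the 15739 low values (up to 20 reads), 93.3% came within 0.1 of a whole number (72.3% in liver replicate 3). Gene identifiers were matched to symbols (13359 of 14004) and loci with GENCODE M21 (GRCm38). One thymus column, replicate 2, carries an extra letter in its name. The main test was limma-trend (limma 3.58.1, R 4.3.3) on log2(value + 1) over all 9 libraries without a block. It used genes for which 3 or more libraries reached a value of 1. As alternatives, edgeR 4.0.16 and DESeq2 1.42.0 were run on the recovered reads. Of these fits, limma-trend alone was tested on simulated data. Precision is limited by 3 libraries per tissue and, in liver replicate 3, by depth. The genes named are the 7 members, listed genes past the threshold (up to 4 per list and comparison), Itgb7, S1pr2, Sgpl1, Foxo1 and Tbx21 whatever their values, and the 2 most similar genes of each member. Itga4, Cxcr4, Klf7, Jun, Dusp1 and the genes named as called by DESeq2 alone fall outside this rule and were chosen after their values were seen. The same holds for the markers Cd3e, Il2rb, Zbtb16, Klrb1c, Cd24a and Rag1. One gene that the rule also names is not reported here and was left out of the lists. The members and lists were chosen with earlier results of these data known.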

Additional observations from a re-analysis of the deposited data

How the results depend on the processing

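Each comparison was repeated under 20 alternatives, and 407 of 420 recomputed log2 differences of the 7 genes kept their sign. With DESeq2 on the recovered reads, 2 of the 7 passed for liver against thymus, 2 for spleen against thymus and 1 in the test for any tissue difference; the cause was not tested. In every other alternative 0 passed. Counts over all genes ranged from 8 (without liver replicate 2) to 457 (DESeq2) for liver against thymus, from 9 (without spleen replicate 3) to 523 (DESeq2) for spleen against thymus, from 0 (without liver replicate 1) to 22 for liver against spleen, and from 18 (without liver replicate 3) to 364 (DESeq2) in the F-test. Signs turned for S1pr5 in liver against thymus with edgeR (-1.10) and DESeq2 (-1.08), for Cd44 in spleen against thymus with equal totals (0.091), and for Klf3 (-0.072) and Cd69 (-0.002) in liver against spleen with array weights; the cause was not tested. Leaving out 1 library at a time gave -0.83 to 2.92 for S1pr5 in liver and -2.41 to 1.35 in spleen against thymus, -0.049 to 0.918 for Cd69 and -0.39 to 0.32 for Cd44 in spleen against thymus, and -0.22 to 0.28 for Klf3 in liver against spleen. The medians of all genes for liver and spleen against thymus were 0.45 and 0.48 with equal totals.

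The labels do not say that a replicate number marks a shared mouse or day, so the main test had no block. Samples with the same number in different tissues had correlations of their deviations from -0.001 to 0.089, and those with different numbers from -0.087 to 0.048. In both other tissues, 4 of 9 libraries were closest to their own number. These values do not settle whether the numbers pair the samples. Replicate 2 is the library high in Xist in all 3 tissues. With the replicate block 0 of the 7 genes passed in any comparison, and 42, 55, 4 and 45 genes passed in all for liver against thymus, spleen against thymus, liver against spleen and the F-test.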
